A study of Mus musculus with 24 samples.

Results

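Mouse myoblasts were kept in growth or differentiation medium at high or low oxygen. A set of 10 genes of extracellular matrix breakdown and its inhibition was followed in these cells. They are 6 matrix metalloproteinases (Mmp2, Mmp3, Mmp9, Mmp11, Mmp13 and Mmp14), the 3 tissue inhibitors Timp1, Timp2 and Timp3, and the secreted protease Adamts1. The genes were taken by symbol, and all 10 were among the 24043 genes of the table. Of these 10, 7 reached a mean of 1 FPKM in at least 1 group and were tested with 12389 genes in all, and Mmp3, Mmp9 and Mmp13 did not.

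C2C12 is an established mouse myoblast line. Growth medium held 10% fetal bovine serum. Differentiation medium held 2% horse serum and was supplemented with insulin, transferrin and selenium, and the labels do not give the number of days. Each medium was combined with 21% oxygen (normoxia) or 2% oxygen (hypoxia), which gives 4 groups with 2 RNA-seq libraries each, called replicates A and B. The design text calls them biological replicates without saying whether they were separate cultures, so p-values measure the spread between these libraries.

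Matrix metalloproteinases are zinc proteases that are made as inactive precursors. Mmp2 and Mmp9 are gelatinases, Mmp13 is a collagenase, Mmp3 is a stromelysin, and Mmp14 is a membrane-bound collagenase. At the cell surface, Timp2 bound to Mmp14 serves as a receptor for the Mmp2 precursor, which a neighbouring Mmp14 molecule then cleaves, while excess Timp2 inhibits the same proteases. In muscle these enzymes are known for the remodelling of the basement membrane during myoblast migration, fusion and repair.

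The libraries differed in depth by an amount that could be read from the steps of low values. Relative to the deepest (hypoxic differentiation replicate A, taken as 1), the other 7 had depths of 0.633 to 0.899, and the shallowest was replicate B of the same group. Replicates correlated over the tested genes with r of 0.975 to 0.983 in 3 groups and 0.958 in hypoxic differentiation medium. In that last group 613 genes differed more than 2-fold between replicates, against 56 to 71 in the others. The summed FPKM of 8 proliferation genes, among them Mki67, was 33.4 in hypoxic differentiation replicate A and 195.6 in replicate B. Muscle markers (8 genes) summed to 551 and 464 FPKM for growth and 4075 and 4148 for differentiation medium under normoxia. They summed to 90.4 to 130.3 in the 4 hypoxic libraries. Myog, the largest part in normoxic differentiation medium at 2576 and 2642 FPKM, was at 4.49 and 2.14 in hypoxic differentiation medium. All 8 muscle markers were lower with hypoxia in both media past the threshold. Differentiation medium in hypoxia raised 3 of them (Myog, Chrna1 and Myh3) and lowered Myod1 past the threshold, where 40.9% of all tested genes changed. The name hypoxic differentiation therefore stands for medium and oxygen and not for a differentiated state. All 4 endothelial and all 4 epithelial markers stayed under 1 FPKM in every library. The 5 hypoxia genes used as a check of the labels, among them Slc2a1 and Car9, were higher at 2% oxygen in both media past the threshold.

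Promoter sequence is shown first for 5 of the genes, because the expression results set them apart. Mmp14 and Timp2 fell together, Timp3 rose with hypoxia, Adamts1 rose with differentiation medium, and Mmp13 was highest in hypoxic differentiation medium. Each is the 250 bases before the transcription start, 5′ to 3′ on the gene's strand, from RefSeq on GRCm38.p6 (the expression table was made on mm9). Capitals mark matches on either strand to the core of the hypoxia-inducible factor element (ACGTG or GCGTG), the AP-1 element (TGACTCA), an E-box of the kind bound by myogenic factors (CAGCTG) or the GC box (GGGCGG). The intervals are chr14:54431348-54431597 (plus strand) for Mmp14, chr11:118355412-118355661 (minus strand) for Timp2 and chr10:86300162-86300411 (plus strand) for Timp3. They are chr16:85803114-85803363 (minus strand) for Adamts1 and chr9:7272264-7272513 (plus strand) for Mmp13.
Mmp14: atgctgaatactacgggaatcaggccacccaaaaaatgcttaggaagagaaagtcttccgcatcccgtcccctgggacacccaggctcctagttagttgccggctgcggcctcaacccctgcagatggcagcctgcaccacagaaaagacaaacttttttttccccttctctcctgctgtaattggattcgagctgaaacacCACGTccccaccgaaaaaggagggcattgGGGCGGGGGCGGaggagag
Timp2: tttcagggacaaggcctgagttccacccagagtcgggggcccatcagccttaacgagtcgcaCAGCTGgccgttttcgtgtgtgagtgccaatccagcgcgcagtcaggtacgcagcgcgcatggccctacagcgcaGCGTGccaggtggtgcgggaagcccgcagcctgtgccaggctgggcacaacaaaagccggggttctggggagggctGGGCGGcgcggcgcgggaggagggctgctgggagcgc
Timp3: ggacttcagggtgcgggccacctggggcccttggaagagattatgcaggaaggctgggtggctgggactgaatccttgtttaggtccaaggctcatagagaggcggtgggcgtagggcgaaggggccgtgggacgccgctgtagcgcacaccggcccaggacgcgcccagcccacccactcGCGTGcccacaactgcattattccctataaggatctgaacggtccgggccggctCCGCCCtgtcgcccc
Adamts1: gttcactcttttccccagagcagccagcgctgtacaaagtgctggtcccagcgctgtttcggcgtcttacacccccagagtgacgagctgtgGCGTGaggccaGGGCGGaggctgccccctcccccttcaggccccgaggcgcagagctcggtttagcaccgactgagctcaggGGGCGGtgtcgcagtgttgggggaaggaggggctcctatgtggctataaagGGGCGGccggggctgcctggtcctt
Mmp13: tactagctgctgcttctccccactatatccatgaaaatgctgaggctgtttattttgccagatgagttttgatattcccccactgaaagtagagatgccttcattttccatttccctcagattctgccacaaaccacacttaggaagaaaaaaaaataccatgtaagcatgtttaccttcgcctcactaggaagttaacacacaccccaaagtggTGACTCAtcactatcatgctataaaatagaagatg

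Neither core of the hypoxia-inducible factor element was found in the Mmp13 window, and each of the other 4 windows held a single match. In the Timp3 window it was GCGTG, 69 bases before the start, and in the Mmp14 window ACGTG on the opposite strand, 48 bases before it. The Timp1 window, not shown, held both cores, ACGTG 82 and GCGTG 206 bases before the start. Timp1 was higher with hypoxia past the threshold in differentiation medium and did not pass in growth medium. Over 32851 promoter windows of the same length, 38.6% held at least 1 of these cores, so a match is common. TGACTCA was found 35 bases before the start of Mmp13 and, as its reverse complement, 46 bases before that of Mmp3, whose sequence is not shown. It was in 4.5% of all windows. CAGCTG (13% of windows) was found in the Timp2 window alone among the 8 genes matched, and GGGCGG (32.7% of windows) in 6 of the 8. The 2 GC boxes of Mmp14 adjoin without overlap. A match is a description of letters and says nothing about binding. Mmp2 and Mmp9 are not printed.

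The 7 tested genes took different courses. Mmp2, Mmp14 and Timp2 were highest in normoxic growth medium and lower in each of the other 3 groups. Timp3 was higher at 2% oxygen in both media. Adamts1 was higher in differentiation medium at both oxygen levels, and Mmp11 and Timp1 varied least.

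**Figure D1:**
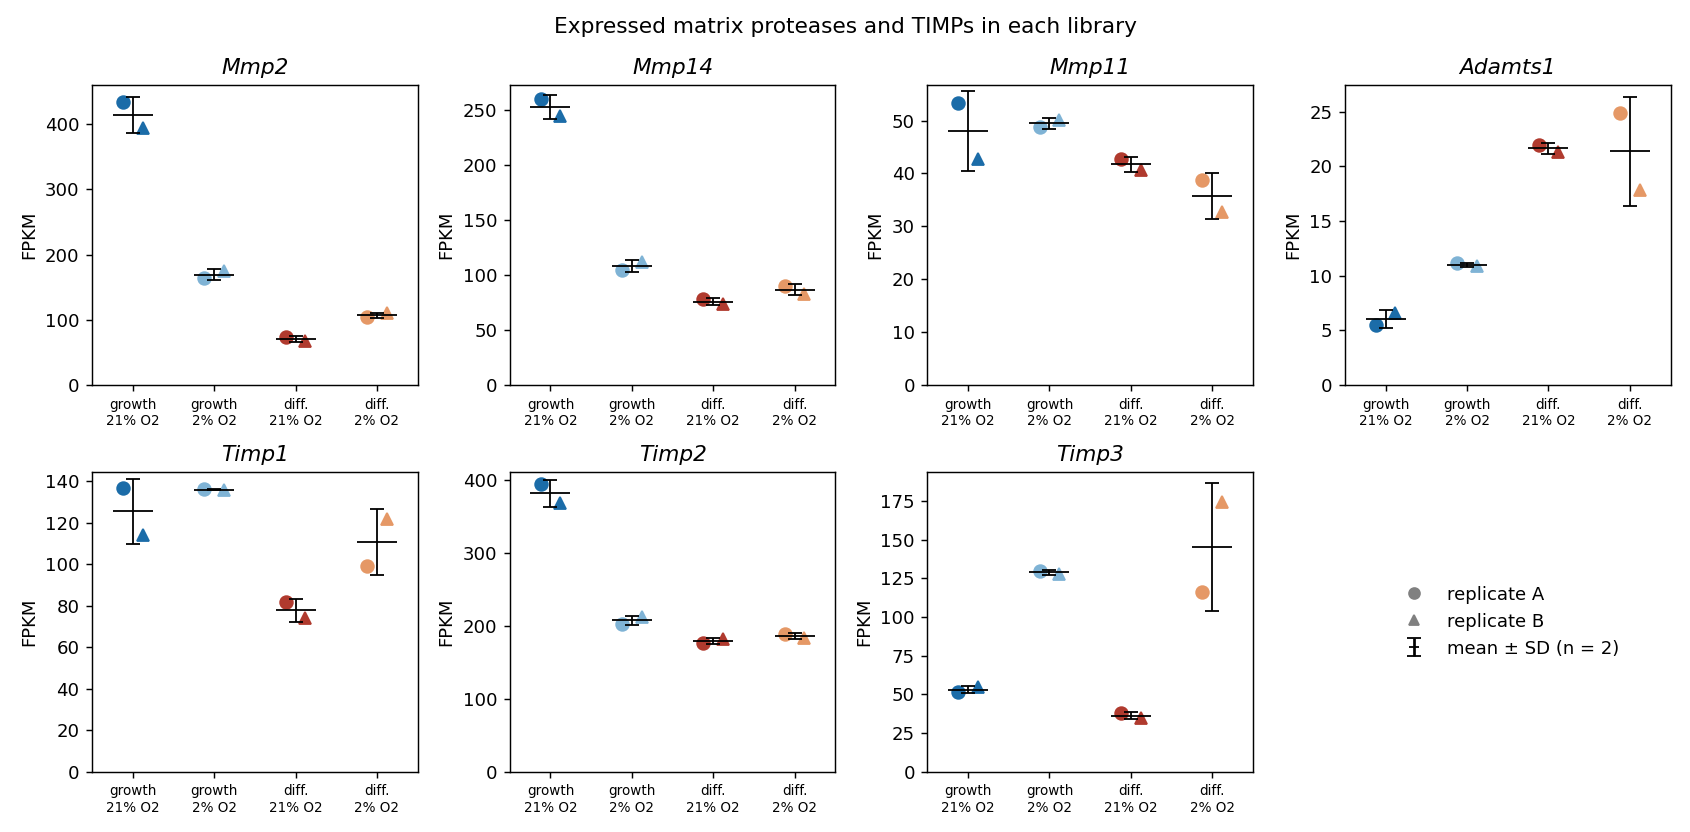
FPKM of the 7 tested genes in each library (vertical axes, linear from 0) by medium and oxygen (horizontal axes), with replicate A as a circle, replicate B as a triangle and a bar for the mean ± SD (n = 2). Mmp2, Mmp14 and Timp2 stand highest in normoxic growth medium, Timp3 stands highest in the 4 hypoxic libraries, and Adamts1 is highest in differentiation medium.

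Mmp2, the gelatinase, was the most abundant of these proteases in every library outside normoxic differentiation medium, where Mmp14 was slightly higher. It stood at 433 and 395 FPKM under normoxia (replicates A and B) and 163 and 175 under hypoxia for growth medium, and 73.6 and 67.8 under normoxia and 104 and 109.7 under hypoxia for differentiation medium. No 2 groups overlapped. Group means were 414 ± 27.3, 169 ± 8.18, 70.7 ± 4.04 and 107 ± 3.92 FPKM in the same order (SD, n = 2).

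Differentiation medium lowered Mmp2 by 5.86-fold in normoxia, a log2 change of -2.53 ± 0.09 (SE, limma adjusted p 1.59e-06). In hypoxia the fall was 1.58-fold (-0.66 ± 0.09, adjusted p 0.00191). Hypoxia lowered Mmp2 in growth medium by 2.45-fold (-1.29 ± 0.09, adjusted p 0.000129) and raised it in differentiation medium by 1.51-fold (0.59 ± 0.09, adjusted p 0.000951). The effect of differentiation medium on Mmp2 depended on oxygen, with an interaction of 1.88 ± 0.12 (adjusted p 5.52e-05), which is the hypoxic change minus the normoxic change. These are bulk libraries, in which fewer cells that express a gene and less RNA per cell cannot be told apart.

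Mmp14, the membrane-bound activator of the Mmp2 precursor, followed the same order of groups. Its values were 260.3 and 245 FPKM under normoxia and 104 and 112 under hypoxia for growth medium, and 78.0 and 73.4 under normoxia and 90.3 and 83.1 under hypoxia for differentiation medium. The groups did not overlap, but the 2 differentiation groups lay close together.

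The fall of Mmp14 with differentiation medium was 3.34-fold in normoxia (log2 change -1.72 ± 0.08, limma adjusted p 6.61e-06) and 1.25-fold in hypoxia (-0.32 ± 0.08, adjusted p 0.0226). The second call was lost without either hypoxic growth library (adjusted p 0.065 without A and 0.141 without B) and without hypoxic differentiation replicate B (0.0543). In growth medium, hypoxia lowered Mmp14 by 2.33-fold (-1.22 ± 0.08, adjusted p 0.000138). In differentiation medium the difference, 0.19 ± 0.08, was not past the threshold (adjusted p 0.0778), and it was 0.25 without hypoxic differentiation replicate B (adjusted p 0.0416). The interaction was 1.41 ± 0.12 (adjusted p 0.000146).

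Timp2, the inhibitor that is also part of the activating complex, made the third gene of this pattern. It was at 394 and 368 FPKM under normoxia and 203 and 212 under hypoxia for growth medium, and 177 and 182 under normoxia and 189 and 183 under hypoxia for differentiation medium. Normoxic growth medium stood apart, and the other 6 libraries lay between 177 and 212 FPKM.

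Timp2 fell 2.13-fold with differentiation medium in normoxia (log2 change -1.08 ± 0.07, limma adjusted p 3e-05) and 1.84-fold with hypoxia in growth medium (-0.88 ± 0.07, adjusted p 0.000282). In hypoxia, differentiation medium gave -0.15 ± 0.07 (adjusted p 0.139), and in differentiation medium, hypoxia gave 0.05 ± 0.07 (adjusted p 0.549). Its interaction was 0.93 ± 0.10 (adjusted p 0.000517). Markers of fibroblasts (Pdgfra, Pdgfrb, Twist2 and Thy1) followed the same group order as Mmp2 in their sum. Their summed FPKM was 118 and 112 under normoxia and 61.3 and 66.8 under hypoxia for growth medium, and 14.5 and 13.6 under normoxia and 21.5 and 21.5 under hypoxia for differentiation medium. Thy1 was at 0 in 7 of the 8 libraries, and the other 3 were lower past the threshold in both differentiation comparisons and with hypoxia in growth medium. With hypoxia in differentiation medium Twist2 rose (from 2.80 to 9.78 FPKM), and Pdgfra and Pdgfrb did not pass (limma adjusted p 0.858 and 0.57). The part of these markers in the course of Mmp2, Mmp14 and Timp2 was not tested.

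Mmp11, a stromelysin-type protease that furin-like enzymes activate inside the cell, held a narrow range. Its values were 53.3 and 42.6 FPKM under normoxia and 48.8 and 50.2 under hypoxia for growth medium, and 42.7 and 40.7 under normoxia and 38.8 and 32.7 under hypoxia for differentiation medium. Normoxic growth medium overlapped with hypoxic growth and with normoxic differentiation medium, and hypoxic differentiation medium lay below all of them. With differentiation medium the change was -0.46 ± 0.13 in hypoxia (log2 scale, limma adjusted p 0.028) and -0.19 ± 0.13 in normoxia (adjusted p 0.229). The difference between them, -0.27 ± 0.18, did not pass the threshold (adjusted p 0.237). The hypoxic call was lost when any one of 5 libraries was left out, which were both of normoxic differentiation, both of hypoxic growth and hypoxic differentiation replicate B (adjusted p 0.0603 to 0.13). Hypoxia gave 0.05 ± 0.13 in growth medium (adjusted p 0.781) and -0.22 ± 0.13 in differentiation medium (adjusted p 0.164).

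Adamts1, a secreted protease that cleaves the proteoglycans versican and aggrecan, rose where Mmp2 fell. It was at 5.44 and 6.62 FPKM under normoxia and 11.1 and 10.9 under hypoxia for growth medium, and 21.98 and 21.3 under normoxia and 24.9 and 17.9 under hypoxia for differentiation medium. The 2 differentiation groups overlapped, and both lay above the growth groups.

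Differentiation medium raised Adamts1 by 3.58-fold in normoxia (log2 change 1.69 ± 0.16, limma adjusted p 0.000134) and 1.94-fold in hypoxia (0.88 ± 0.16, adjusted p 0.0065). Hypoxia raised it in growth medium by 1.82-fold (0.78 ± 0.16, adjusted p 0.00938), a call that was lost without normoxic growth replicate A (adjusted p 0.0599) and without hypoxic growth replicate A (0.0591) or B (0.0525). In differentiation medium the difference was -0.03 ± 0.16 (adjusted p 0.865). The interaction of -0.81 ± 0.23 passed (adjusted p 0.0228), but not when normoxic growth replicate A, either normoxic differentiation library or either hypoxic growth library was left out (adjusted p 0.0654 to 0.0828).

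Timp3, which binds to the matrix and also inhibits ADAM and ADAMTS proteases, was the inhibitor with the largest response to oxygen. It was at 51.4 and 54.8 FPKM under normoxia and 130.04 and 128 under hypoxia for growth medium, and 38.1 and 34.6 under normoxia and 116 and 174 under hypoxia for differentiation medium. The 4 hypoxic libraries lay above all 4 normoxic ones, and the 2 hypoxic groups overlapped.

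Hypoxia raised Timp3 by 2.43-fold in growth medium (log2 change 1.26 ± 0.18, limma adjusted p 0.00198) and 3.99-fold in differentiation medium (1.94 ± 0.18, adjusted p 0.000108). The second value was 1.65 without hypoxic differentiation replicate B and 2.23 without replicate A, and it passed in both cases. The interaction was 0.68 ± 0.25 (adjusted p 0.0577), and it passed at 0.97 without that replicate A (adjusted p 0.000703) and at 0.39 without that replicate B (adjusted p 0.0267). Differentiation medium in normoxia gave -0.53 ± 0.18 (adjusted p 0.033), which was lost without any one of the normoxic or hypoxic growth libraries or the normoxic differentiation libraries (adjusted p 0.0588 to 0.157). In hypoxia it gave 0.14 ± 0.18 (adjusted p 0.564), or -0.15 when hypoxic differentiation replicate B was left out (adjusted p 0.213) and 0.43 when its replicate A was (0.00855). Replicate B of that group, with the higher Timp3 value, is also the library with the higher proliferation genes (195.6 against 33.4 FPKM), and the part of that difference in the Timp3 values was not tested.

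Timp1, a broad inhibitor that is inducible by growth factors and cytokines in many cells, had values of 137 and 114 FPKM in normoxic growth medium and 136 and 136 in hypoxic growth medium. For differentiation medium it was at 81.9 and 74.1 under normoxia and 99.3 and 122 under hypoxia. Normoxic differentiation medium lay below the other groups, which overlapped in part. The fall with differentiation medium was 1.61-fold in normoxia (log2 change -0.68 ± 0.13, limma adjusted p 0.00336), and in hypoxia the value was -0.30 ± 0.13 (adjusted p 0.104, or 0.0293 without hypoxic differentiation replicate B). Hypoxia raised Timp1 in differentiation medium by 1.42-fold (0.49 ± 0.13, adjusted p 0.0134), a call lost without normoxic differentiation replicate B (adjusted p 0.0892). In growth medium hypoxia gave 0.12 ± 0.13 (adjusted p 0.488). The interaction was 0.37 ± 0.18 (adjusted p 0.127), and it passed at 0.52 without hypoxic differentiation replicate A (adjusted p 0.0294).

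Timp1 and Timp3 each overlap a synapsin gene, Syn1 and Syn3. Syn1 was at most 5.75 FPKM and Syn3 at most 0.0552 FPKM in any library. Mmp2 overlaps Gm45472 and Timp2 overlaps Cep295nl, and no values of these were used here. Whether counting used strand is not stated, so reads of overlapping genes may not be separated.

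**Figure D2:**
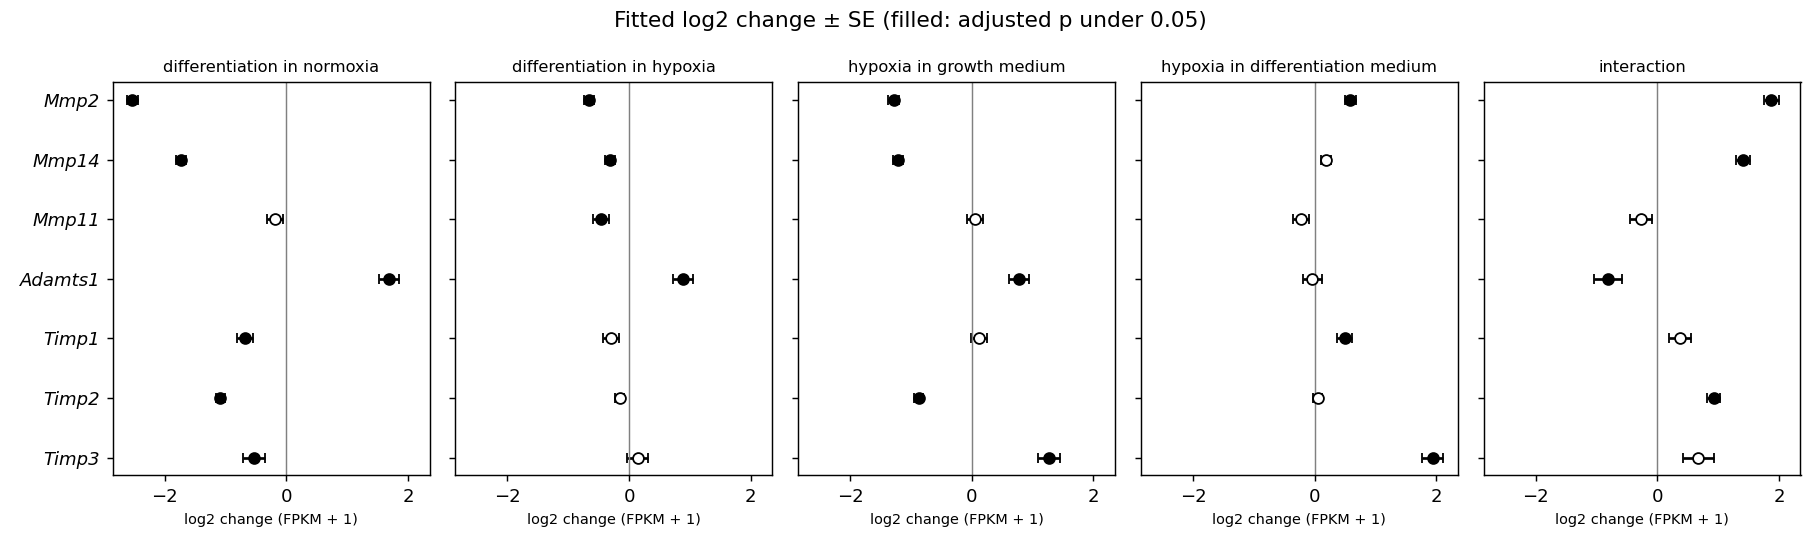
Fitted log2 change of FPKM + 1 (horizontal axes) with its SE for the 7 tested genes (vertical axis) in the 4 pairwise comparisons and the interaction, with filled points for an adjusted p under 0.05. Mmp2, Mmp14 and Timp2 fall to -2.53, -1.72 and -1.08 in normoxic differentiation, and Timp3 rises by 1.26 and 1.94 in the 2 hypoxia comparisons.

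By count, differentiation medium in normoxia changed 6 of the 7 tested genes past the threshold, 1 higher and 5 lower, where 66.5% of all tested genes changed (25.5% higher and 41.0% lower). In hypoxia it changed 4, 1 higher and 3 lower, against a background of 40.9% (23.3% higher and 17.6% lower). Leaving out hypoxic growth replicate A or B brought that count to 2. Hypoxia in growth medium changed 5, 2 higher and 3 lower, against 41.4% (13.5% higher and 28.0% lower). In differentiation medium hypoxia changed 3, all higher, against 65.2% (37.5% higher and 27.7% lower), or 3 higher and 1 lower after median-of-ratios scaling. The interaction passed for 4 genes, 3 positive and 1 negative, against 54.1% (35.4% positive and 18.7% negative). With 7 genes tested, none of these counts is read as particular to these genes. Over all genes tested, the median log2 change was -0.20, 0.07, -0.14 and 0.15 in the 4 pairwise comparisons and 0.27 in the interaction, and 0.02, 0.02, -0.03, -0.01 and -0.01 after median-of-ratios scaling. After that scaling the fall of Timp3 in normoxic differentiation no longer passed (-0.26, limma adjusted p 0.143).

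Ratios between genes in the same library do not depend on scaling between libraries. The ratios given here were chosen after the values were seen and carry no test. Timp2 stood at 0.91 and 0.933 of the Mmp2 level under normoxia and 1.24 and 1.21 under hypoxia for growth medium, and 2.4 and 2.68 under normoxia and 1.81 and 1.67 under hypoxia for differentiation medium. Mmp2 was therefore above its inhibitor in normoxic growth medium, and Timp2 was the higher of the pair in the other 3 groups. Mmp2 was 1.66 and 1.61 times Mmp14 under normoxia and 1.57 and 1.56 under hypoxia for growth medium, and 0.943 and 0.924 under normoxia and 1.15 and 1.32 under hypoxia for differentiation medium. Hypoxia in growth medium thus lowered the 2 transcripts in near proportion, while differentiation medium lowered Mmp2 further than Mmp14.

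Among the inhibitors, Timp3 stood at 0.13 and 0.149 of the Timp2 level in normoxic growth medium and 0.216 and 0.19 in normoxic differentiation medium. It reached 0.642 and 0.603 in hypoxic growth medium and 0.615 and 0.952 in hypoxic differentiation medium. Timp2 made up 68.1% ± 0.564 of the summed TIMP signal in normoxic growth medium and 42.5% ± 6.03 in hypoxic differentiation medium, while Timp3 went from 9.51% ± 0.975 to 32.5% ± 5.41 (SD, n = 2). The 6 metalloproteinases summed to 748 and 683 FPKM under normoxia and 316 and 337 under hypoxia for growth medium, and 194 and 182 under normoxia and 234 and 226 under hypoxia for differentiation medium. The 3 inhibitors summed to 582 and 537 in normoxic growth medium and to 297 and 291 in normoxic differentiation medium, with 404 to 479 in the 4 hypoxic libraries. The inhibitor sum was 0.783 ± 0.00557 of the protease sum in normoxic growth medium, and 1.45 ± 0.0521, 1.56 ± 0.0496 and 1.92 ± 0.274 in hypoxic growth, normoxic differentiation and hypoxic differentiation medium. These are transcript levels per length and not protein or activity.

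**Figure D3:**
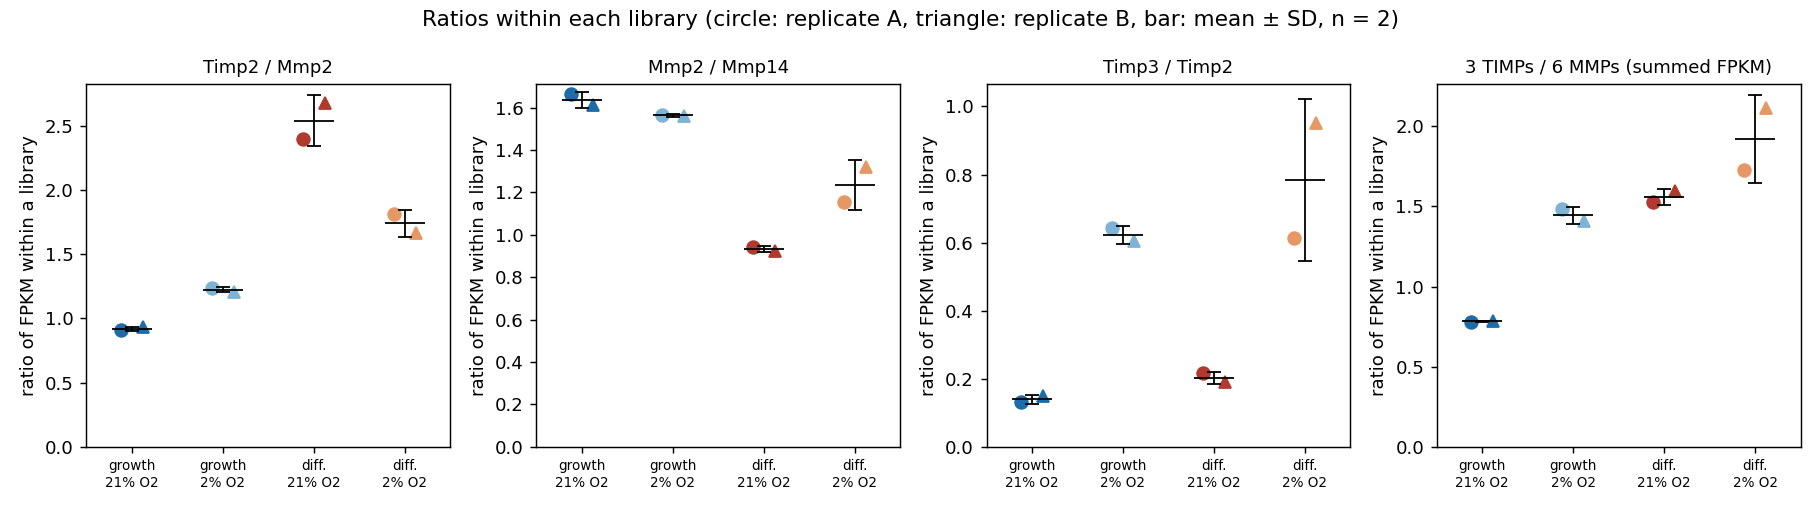
Ratios of FPKM within each library (vertical axes, linear from 0) by medium and oxygen, with replicate A as a circle, replicate B as a triangle and a bar for the mean ± SD (n = 2). The ratio of 3 TIMPs to 6 MMPs is 0.779 and 0.787 in normoxic growth medium and between 1.41 and 2.12 in the other 6 libraries.

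The other 3 proteases lay under 1 FPKM in every library, and their values were whole multiples of a step that scaled with the relative depth (within 0.1 of a whole number up to 10 steps). That step was taken as 1 fragment for Mmp9 and Mmp13. The upper limit for a gene with no fragment, 3 fragments, lay at 0.0435 to 0.0688 FPKM for Mmp9 and 0.0523 to 0.0827 for Mmp13, depending on library. For Mmp3, 3 steps lay at 0.0405 to 0.064 FPKM, and its limit may be higher. Intervals below cover counting error alone.

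Mmp9, the second gelatinase, was at 0.877 and 0.629 FPKM in normoxic growth medium, or 42 and 39 fragments. Hypoxic growth medium had 1 and 3 fragments, normoxic differentiation medium 1 and 2, and hypoxic differentiation medium 4 and 4. Normoxic growth medium was above the other 6 libraries, as for Mmp2. The ratio of normoxic growth to normoxic differentiation medium was 26.1 (95% exact conditional interval 8.61 to 129.1), and that to hypoxic growth medium was 21.99 (8.27 to 82.7). In a fit without the expression filter, over 17914 genes, Mmp9 fell with differentiation medium in normoxia by 0.77 ± 0.07 on the log2 scale (limma adjusted p 0.000277) and with hypoxia in growth medium by 0.76 ± 0.07 (adjusted p 0.000973). In that fit 49.7% and 28.9% of genes changed in these comparisons. The pseudocount of 1 FPKM makes these values far smaller than the ratios.

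Mmp13, the collagenase, was highest in another group. It was at 0.645 and 0.771 FPKM in hypoxic differentiation medium, or 37 and 28 fragments, and at 0 to 0.126 FPKM in the other 6 libraries. There were 5 and 3 fragments under normoxia and 1 and 0 under hypoxia for growth medium, and 2 and 1 under normoxia for differentiation medium. The ratio of hypoxic to normoxic differentiation medium was 20.4 (95% exact conditional interval 6.69 to 101.6), and that to hypoxic growth medium was 68.9 (11.9 to 2763). Without the filter, Mmp13 rose with differentiation medium in hypoxia by 0.76 ± 0.05 (log2 scale, limma adjusted p 0.000728) and with hypoxia in differentiation medium by 0.72 ± 0.05 (adjusted p 9.68e-05), where 27.8% and 50.3% of genes changed. Its interaction was 0.83 ± 0.07 (adjusted p 0.000413, with 39.6% of genes changed), and that of Mmp9 was 0.82 ± 0.09 (adjusted p 0.00142).

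Replicates A and B of hypoxic differentiation medium had Mmp13 at 0.645 and 0.771 FPKM and proliferation genes at a sum of 33.4 and 195.6 FPKM. A relation between the 2 was not tested. The summed FPKM of 6 macrophage genes moved with Mmp13. It was 26.5 and 43.3 in hypoxic differentiation medium and 2.06 to 4.39 in the other 6 libraries. Nearly all of this was Cd68, a lysosomal protein gene and the only member tested, at 25.8 and 42.8 FPKM. Of the defining leukocyte markers, Emr1 (now Adgre1) was at 0 in all 8 libraries, Ptprc at 0 in 7 and 0.0137 FPKM in the other, and Csf1r was at most 0.167 FPKM. Itgam was at most 0.141 FPKM, highest in normoxic differentiation medium. Lyz2 was at most 0.816 FPKM, highest in normoxic growth medium, and stood at 0.683 and 0.28 in hypoxic against 0.0742 and 0 in normoxic differentiation medium. The part of these genes in the Mmp13 values was not tested.

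Mmp3, the stromelysin, was near the limit of detection. In the steps described above, it stood at 2 and 6 under normoxia and 0 and 0 under hypoxia for growth medium. For differentiation medium it stood at 0 and 2 steps under normoxia and 3 and 8 under hypoxia. The last 2 libraries reached 0.0405 and 0.171 FPKM. For Mmp3 a step was not taken as a fragment, so these are not fragment counts. Hypoxic differentiation medium overlapped with normoxic growth medium, and its replicate A was at the level of 3 steps. No comparison of Mmp3 passed the threshold in the fit without a filter (adjusted p 0.0924 to 0.395).

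**Figure D4:**
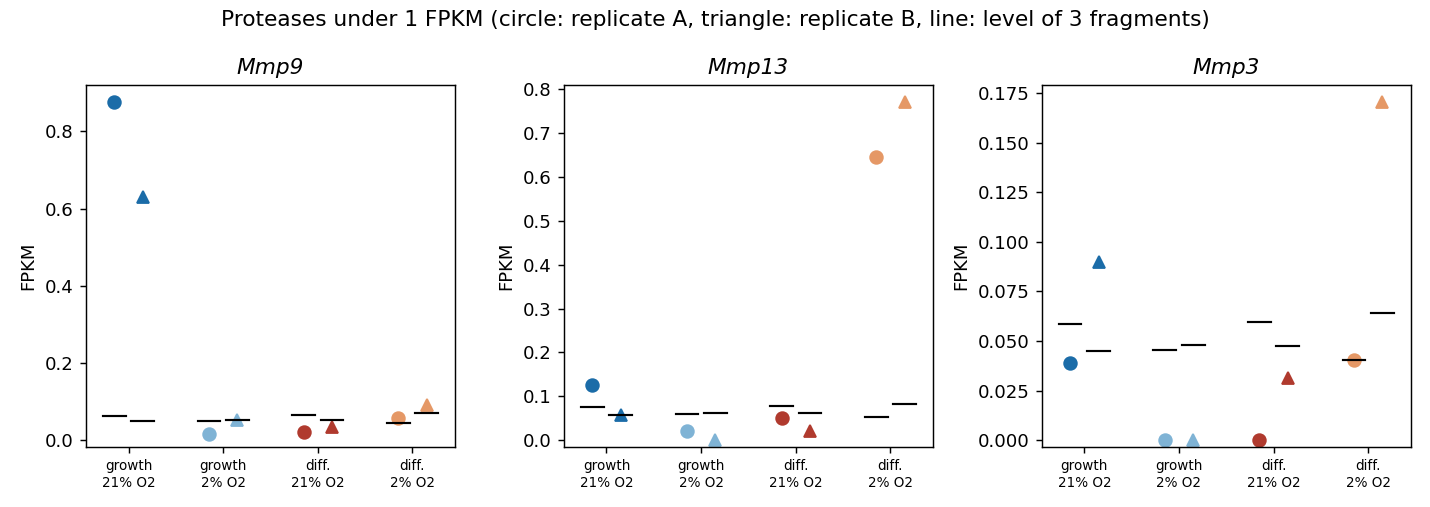
FPKM of Mmp9, Mmp13 and Mmp3 (vertical axes, linear) in each library by medium and oxygen, with replicate A as a circle and replicate B as a triangle. A short line marks the level of 3 fragments in that library, or of 3 steps for Mmp3. Mmp9 is at 0.877 and 0.629 FPKM in normoxic growth medium, and Mmp13 is at 0.645 and 0.771 in hypoxic differentiation medium.

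Genes with the most similar course over the 8 libraries were taken by Pearson's r of log2(FPKM + 1), out of 7864 other genes with a mean of at least 10 FPKM in their highest group. The libraries fall into 4 groups, so r mostly reflects 4 levels, and it is given as a description. Nearest to Mmp2 were Fuz (r 0.998), Slc25a17 (0.996) and Kazald1 (0.995). Mmp14 was nearest to Slc1a3, Fbf1 and Rxra (0.993 each). For Timp2 they were H2afy2 (0.996), Limd2 (0.994) and Mmp14 itself (0.993). Timp3 had Fbln2 (0.991), Cep170b (0.99) and Mpp2 (0.989), and Adamts1 had Rhot1 (0.984), Acp6 (0.978) and Sel1l (0.978). Fbln2, which encodes the matrix protein fibulin-2, was at 65.1 and 61.7 FPKM in normoxic growth medium and 209 and 264 in hypoxic differentiation medium.

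Other metalloproteinases of the family were mostly low. Of 17 further MMP genes 5 were tested. Among all genes tested, 66.5% and 40.9% passed the threshold with differentiation medium in normoxia and in hypoxia. With hypoxia, 41.4% passed in growth medium and 65.2% in differentiation medium. No count in this paragraph or the next 2 is read as particular to its list. Differentiation medium in normoxia raised 1 and lowered 4 of them (median log2 change -0.999, against -0.20 for all genes), and in hypoxia it raised 1 and lowered 3 (-0.71 against 0.07). The gene that rose was Mmp15, another membrane-bound enzyme, from 0.94 ± 0.134 to 11.1 ± 0.445 FPKM in normoxia (log2 change 2.64 ± 0.30, limma adjusted p 0.000316) and from 0.531 ± 0.0216 to 4.02 ± 2.47 in hypoxia (1.62 ± 0.30, adjusted p 0.00711). Mmp15 thus went the other way from Mmp14. Among genes of at least 5 FPKM in their highest group, the largest falls were those of Mmp23 in normoxia (-1.71 ± 0.24, adjusted p 0.000859) and Mmp28 in hypoxia (-1.67 ± 0.12, adjusted p 0.000298). Hypoxia raised 1 and lowered 1 of the 5 in growth medium (median -0.34 against -0.14), with Mmp19 at -0.63 ± 0.12 (adjusted p 0.00578), and raised 1 and lowered 2 in differentiation medium (0.07 against 0.15), with Mmp15 at -1.36 ± 0.30 (adjusted p 0.00697).

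The relatives of Adamts1 changed in both directions. Of 23 further ADAMTS and ADAMTS-like genes 14 were tested. Differentiation medium raised 8 and lowered 5 in normoxia (median 0.50 against -0.20 for all genes) and raised 2 and lowered 5 in hypoxia (-0.34 against 0.07). Adamts5, which also cleaves aggrecan and versican, rose from 0.73 ± 0.0218 to 7.49 ± 0.2 FPKM in normoxia (log2 change 2.30 ± 0.17, limma adjusted p 3.88e-05) and from 0.511 ± 0.117 to 1.8 ± 0.662 in hypoxia (0.87 ± 0.17, adjusted p 0.00734). The largest falls were Adamts10 in normoxia (-2.33 ± 0.12, adjusted p 1.06e-05) and Adamtsl3 in hypoxia (-1.54 ± 0.10, adjusted p 0.000274). Hypoxia raised 3 and lowered 3 of the 14 in growth medium (-0.10 against -0.14). The largest changes among genes of at least 5 FPKM were those of Adamtsl5 (0.94 ± 0.12, adjusted p 0.0016) and Adamts4 (-1.33 ± 0.12, adjusted p 0.000325), and the lower Adamtsl1 rose by more (1.13 ± 0.19, adjusted p 0.00385). In differentiation medium it raised 2 and lowered 8 (-0.56 against 0.15), with Adamts5 at -1.62 ± 0.17 (adjusted p 0.000184) and the largest changes in Adamtsl4 (0.96 ± 0.12, adjusted p 0.000512) and Adamts14 (-1.76 ± 0.24, adjusted p 0.000739).

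Regulators of these enzymes formed a list of 13 genes, of which 8 were tested and Timp4, the remaining TIMP, was above 0 in a single library (0.0791 FPKM). Differentiation medium raised 1 and lowered 5 in normoxia (median -0.91 against -0.20) and lowered 5 in hypoxia (-0.50 against 0.07). Hypoxia raised 3 and lowered 3 in growth medium (-0.02 against -0.14) and raised 5 and lowered 3 in differentiation medium (0.58 against 0.15). Bsg, which encodes basigin, a membrane glycoprotein known both as an inducer of metalloproteinases and as a partner of lactate transporters, rose with hypoxia from 396 ± 5.66 to 2399 ± 42.02 FPKM in growth medium (log2 change 2.59 ± 0.13, limma adjusted p 5.71e-05). In differentiation medium it rose from 424 ± 16.5 to 2704 ± 474 (2.66 ± 0.13, adjusted p 7e-06). Mmp2 and Mmp14 fell with hypoxia in the first of these comparisons. In the second, Mmp2 rose (0.59 ± 0.09, adjusted p 0.000951) and Mmp14 did not pass (0.19 ± 0.08, adjusted p 0.0778). A link between Bsg and these 2 genes was not tested. Cd44, a hyaluronan receptor, fell with hypoxia in both media (-1.43 ± 0.32, adjusted p 0.0123, and -1.92 ± 0.32, adjusted p 0.0018). Pcolce, an enhancer of procollagen processing, fell with differentiation medium in normoxia (-2.96 ± 0.14, adjusted p 5.91e-06) and with hypoxia in growth medium (-0.74 ± 0.14, adjusted p 0.00604), and rose with hypoxia in differentiation medium (1.99 ± 0.14, adjusted p 3.02e-05). Spock2, a matrix proteoglycan gene, had the largest fall of the list with differentiation medium in hypoxia (-1.58 ± 0.08, adjusted p 0.000138). It fell further with differentiation medium in normoxia (-2.33 ± 0.08, adjusted p 1.53e-06). Hypoxia raised Spock2 in differentiation medium (0.64 ± 0.08, adjusted p 0.000396) and did not pass in growth medium (-0.10 ± 0.08, adjusted p 0.36).

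Reck and Furin are named from the same list after their values were seen. Reck encodes a membrane-anchored inhibitor of several metalloproteinases. It was at 3.39 and 3.62 FPKM under normoxia and 4.84 and 5.18 under hypoxia for growth medium, and 0.626 and 0.689 under normoxia and 3.32 and 3.07 under hypoxia for differentiation medium. Hypoxia raised it in growth medium (log2 change 0.42 ± 0.10, limma adjusted p 0.0148) and in differentiation medium (1.34 ± 0.10, adjusted p 3.9e-05), as it raised Timp3. Furin, the convertase that activates the precursors of Mmp14 and Mmp11, was lower with hypoxia in both media (-0.93 ± 0.13, adjusted p 0.00173, and -0.89 ± 0.13, adjusted p 0.000821). Differentiation medium also lowered Furin, in normoxia (-0.53 ± 0.13, adjusted p 0.00907) and in hypoxia (-0.49 ± 0.13, adjusted p 0.022).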

How the data were processed

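The authors deposited a gene table of FPKM values (fragment counts scaled to transcript length and to sequencing depth), with 1 column for each of the 8 RNA-seq libraries. The submitters' processing notes name STAR 2.5.1b, Cufflinks 2.2.1 and the mouse build mm9. The annotation, whether counting used strand, and any further scaling are not given in the sources used here.

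Values were analysed as log2(FPKM + 1) with limma 3.58.1 in R 4.3.3, with the prior variance following the mean level (4 residual and 2.61 prior degrees of freedom). The 8 libraries were fitted together as 4 group means, for genes whose mean reached 1 FPKM in any group. Tests are two-sided, and p-values were adjusted by Benjamini and Hochberg's method across the 12389 genes tested, with 0.05 as the threshold. The fit was tested on simulated data. Alternatives changed the pseudocount, filter, scaling, weights, libraries and block.

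The 10 genes and the lists beside them were chosen with earlier results of these data known. Named genes of the other lists are those with the largest rise or fall past the threshold in a contrast, if their highest group mean reached 5 FPKM; 1 such gene is not reported here. Adamtsl1 and Adam12 fall outside this rule and were chosen after their values were seen. Libraries of chromatin and input DNA are not analysed here. Promoter letters are from RefSeq (GRCm38.p6), matched by symbol for 8 of the 10 genes.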

Additional observations from a re-analysis of the deposited data

Results flagged for a closer look

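The response to differentiation medium differed between 2% and 21% oxygen for 4 of the 7 tested genes, by the interaction in limma, where 54.1% of all tested genes passed, a share near that of these genes. It was 1.88 for Mmp2 (adjusted p 5.52e-05), 1.41 for Mmp14 (adjusted p 0.000146) and 0.93 for Timp2 (adjusted p 0.000517) on the log2 scale. These 3 genes fell with differentiation medium in normoxia, and in hypoxia their changes were -0.66, -0.32 and -0.15. They were already lower in hypoxic than in normoxic growth medium. For Adamts1 the interaction was -0.81 (adjusted p 0.0228), with a larger rise in normoxia (1.69) than in hypoxia (0.88).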

How the results depend on the processing

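For the 7 tested genes there were 35 fitted changes (7 genes in 5 comparisons) and 588 values under the alternatives, of which 529 kept their direction and their side of the threshold, 41 lost a call, 11 gained one and 7 changed sign. The sign changes were all of values that did not pass the threshold. They were Mmp11 in normoxic differentiation (0.082), Mmp14 (-0.0025, from 0.19) and Timp2 (-0.14) with hypoxia in differentiation medium, each after median-of-ratios scaling, Mmp11 (-0.11) and Timp1 (-0.0064) with hypoxia in growth medium without normoxic growth replicate B, and Timp3 on hypoxic differentiation (-0.15) and Adamts1 with hypoxia in differentiation medium (0.20) without hypoxic differentiation replicate B. Leaving out each library in turn gave ranges of -0.11 to 0.21, -0.0064 to 0.25, -0.15 to 0.43 and -0.26 to 0.20 for these last 4. The count of these genes past the threshold on hypoxic differentiation, 4, was 2 with only the libraries compared and 2 with array quality weights, and ranged from 2 to 5 when a library was left out. When calls also needed a log2 change of 1 or more, it was 0, and the counts were 3 (from 5) for hypoxia in growth medium, 1 (from 3) for hypoxia in differentiation medium and 2 (from 4) for the interaction. The same requirement moved the counts over all genes from 8241 to 3542 (normoxic differentiation), 5073 to 925 (hypoxic differentiation), 5135 to 1268 (hypoxia in growth medium), 8075 to 3420 (hypoxia in differentiation medium) and 6707 to 3410 (interaction). Hypoxic differentiation gave 2867 genes with only the libraries compared and 2503 to 6479 when a library was left out, lowest without hypoxic growth replicate B. Hypoxia in growth medium gave 2989 to 6831, lowest without hypoxic growth replicate A. The interaction needs all 8 libraries and has no value with only the libraries compared. Where a library was left out, the lone library of its group was assumed to vary like the other groups. Higher genes made up 38.4% of calls in normoxic differentiation as deposited and 53.2% with median-of-ratios scaling, 56.9% and 44.3% (upper-quartile) in hypoxic differentiation, 32.6% and 49.7% (upper-quartile) for hypoxia in growth medium, 57.5% and 47.2% (median-of-ratios) for hypoxia in differentiation medium, and 65.5% and 47.3% (median-of-ratios) for the interaction. The causes of these shifts were not tested. The letters A and B showed no strong shared difference, since the differences between A and B correlated between groups with r of -0.166 to 0.042. These values cannot decide whether the libraries were paired, as a small shared effect could give them too. With the letter as a replicate block, the counts of these genes were 6, 4, 5, 3 and 4, no call of theirs changed, and the count over all genes in hypoxic differentiation was 4453. Depth limits Mmp3, Mmp9 and Mmp13, where a few fragments decide the level.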

Other observations

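Genes that act beside the metalloproteinases were examined as well. Counts below are given in the order of normoxic differentiation, hypoxic differentiation, hypoxia in growth medium and hypoxia in differentiation medium. Over all genes tested, 66.5%, 40.9%, 41.4% and 65.2% passed the threshold in these comparisons, with median log2 changes of -0.20, 0.07, -0.14 and 0.15, and no count below is read as particular to its list. Of 8 genes of the plasminogen system, whose product plasmin can activate several metalloproteinase precursors, 5 were tested. Serpine2, which encodes a serine protease inhibitor, fell with differentiation medium in normoxia (log2 change -0.95 ± 0.13, limma adjusted p 0.000793) and with hypoxia in growth medium (-0.42 ± 0.13, adjusted p 0.0447). It rose with hypoxia in differentiation medium (0.74 ± 0.13, adjusted p 0.0026). Of the 5, 0, 2, 1 and 3 rose and 1, 0, 1 and 0 fell (medians -0.53, 0.21, -0.17 and 0.38).

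Of 11 cathepsin and other matrix protease genes 6 were tested, and 2, 3, 2 and 4 rose and 4, 0, 1 and 1 fell (medians -0.58, 0.17, -0.01 and 0.74). Ctsl, a lysosomal cathepsin, rose with differentiation medium in normoxia from 184 ± 3.22 to 641 ± 5.75 FPKM (1.79 ± 0.08, adjusted p 4.66e-06), and it was lower in hypoxic than in normoxic differentiation medium (-1.44 ± 0.08, adjusted p 1.06e-05). Htra1, a secreted serine protease gene, rose with hypoxia in growth medium (1.40 ± 0.15, adjusted p 0.00061) and in differentiation medium (2.39 ± 0.15, adjusted p 1.73e-05). Ctsd rose most on hypoxic differentiation (1.14 ± 0.11, adjusted p 0.000661). Bmp1, which encodes a procollagen-processing protease, fell with differentiation medium in normoxia (-1.49 ± 0.18, adjusted p 0.000372) and with hypoxia in growth medium (-0.91 ± 0.18, adjusted p 0.0076), and rose with hypoxia in differentiation medium (0.50 ± 0.18, adjusted p 0.0425). Of 10 ADAM genes 8 were tested, with 1, 1, 1 and 3 higher and 4, 0, 4 and 4 lower (medians -0.17, -0.04, -0.32 and -0.09). Adam19 rose with differentiation medium in normoxia (1.72 ± 0.16, adjusted p 0.000115) and in hypoxia (0.80 ± 0.16, adjusted p 0.00867), and fell with hypoxia in growth medium (-0.73 ± 0.16, adjusted p 0.0111) and in differentiation medium (-1.65 ± 0.16, adjusted p 0.000139). With hypoxia in growth medium, Adam8 fell by 0.81 ± 0.24 (adjusted p 0.0342) and Adam12, which is under 5 FPKM, by 0.85 ± 0.22 (adjusted p 0.0204). Adam15 fell in normoxic differentiation (-0.90 ± 0.13, adjusted p 0.00104) and rose with hypoxia in both media (0.68 ± 0.13, adjusted p 0.00761, and 1.51 ± 0.13, adjusted p 9.19e-05).

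Of 12 genes for matrix substrates 10 were tested, with 2, 1, 3 and 5 higher and 6, 5, 2 and 2 lower (medians -0.70, -0.53, 0.23 and 0.67). Nid1, which encodes the basement membrane protein nidogen, rose with hypoxia in growth medium (1.12 ± 0.08, adjusted p 0.000203) and in differentiation medium (1.97 ± 0.08, adjusted p 3.57e-06), and fell with differentiation medium in normoxia (-1.69 ± 0.08, adjusted p 7.86e-06) and in hypoxia (-0.84 ± 0.08, adjusted p 0.000799). Col1a1, a fibrillar collagen gene, rose with differentiation medium in hypoxia (0.75 ± 0.11, adjusted p 0.00279). Thbs2, a thrombospondin gene, fell with differentiation medium in normoxia (-2.34 ± 0.21, adjusted p 0.000111) and in hypoxia (-1.31 ± 0.21, adjusted p 0.00418). With hypoxia Thbs2 fell in growth medium (-1.58 ± 0.21, adjusted p 0.00177) and did not pass in differentiation medium (-0.55 ± 0.21, adjusted p 0.0579). Lama2, the laminin chain of the muscle basement membrane, rose with differentiation medium in normoxia (1.59 ± 0.12, adjusted p 4.21e-05), fell with it in hypoxia (-0.88 ± 0.12, adjusted p 0.00208), and was lower in hypoxic than in normoxic differentiation medium (-2.90 ± 0.12, adjusted p 2.90e-06).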
